A study of Mus musculus with 6 samples.

Results

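Genes reported as markers of limbal stem and progenitor cells were compared between wild type (WT) and Rela knockout (KO) corneal epithelium. The group comprised 8 genes, Gpha2, Abcg2, Abcb5, Ifitm3, Cd63, Lrig1, Bmi1 and Cebpd, which were taken by symbol from a table of 17866 protein-coding genes and were all found in it. Measurements came from 6 bulk RNA-seq libraries of separated corneal epithelium (mouse strain C57BL/6, age 6 months), 3 with the genotype label WT and 3 with the label Rela-/-. Rela encodes the NF-κB subunit p65. The study removed it by crossing a floxed allele (f/f) to Krt14-Cre, so that the deletion lies in all epithelia with a history of Krt14 expression, including cornea, limbus, conjunctiva and skin, and not in limbal stem cells alone. The labels give WT for the controls and do not say whether they carried a floxed allele or Cre. No other treatment is named in the labels.

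The epithelium of the cornea is renewed from a narrow ring at its border with the conjunctiva, the limbus. Stem cells in the basal layer there divide slowly, and their progeny divide faster, move towards the centre and switch on corneal keratins as they differentiate. Markers of these cells include membrane pumps that expel dyes and drugs (Abcg2 and Abcb5), brakes on growth factor signalling and on the cell cycle (Lrig1 and Cebpd), a chromatin regulator of self-renewal (Bmi1) and, in mouse, a group of genes found together in the quiescent outer limbus (Gpha2, Ifitm3 and Cd63).

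Library totals lay between 20158404 and 20880347 counts. Rela itself was counted 1871, 1844 and 1855 times in the WT libraries and 318, 223 and 313 times in the KO libraries, with 16.5% of the mean CPM left. All 6 listed markers of corneal epithelium were present in every library and fell in KO, where their summed level was 21510 to 24329 CPM (counts scaled to a common library total and composition) beside 93034 to 96193 in WT. Of all genes tested, 30.2% fell at an adjusted p of 0.05 in edgeR. Among the WT libraries, replicate 2 stood apart in Ifitm3 and Krt14. It was also the highest WT library for each of 11 interferon-stimulated genes listed below. Several of the results below are also given without it.

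Of the 8 genes, 7 had enough counts for a test, 4 of them rose in KO and 3 fell at an adjusted p of 0.05 (edgeR). The rises were in Cd63, Gpha2, Ifitm3 and Cebpd, and the falls in Abcg2, Lrig1 and Bmi1. Over all 13305 genes tested, 62.0% passed this threshold, 31.8% as higher and 30.2% as lower, so that a change as such did not set these genes apart. The groups did not overlap for any of the 7 genes, as for 68.7% of all genes tested. The study used a stricter threshold (adjusted p up to 0.001 and a fold change of 2 or more). Under it Gpha2, Cd63 and Cebpd were higher and Abcg2 and Lrig1 lower in edgeR, while 19.8% of all genes tested passed, 11.6% as higher and 8.24% as lower. Cebpd and Ifitm3 changed sides of this stricter threshold between fits, as given below. In whole epithelium, fewer cells of a type and less RNA per cell cannot be told apart. Levels below are means ± SD over the 3 libraries of a group, and the p-values rest on the spread among these libraries.

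**Figure D1:**
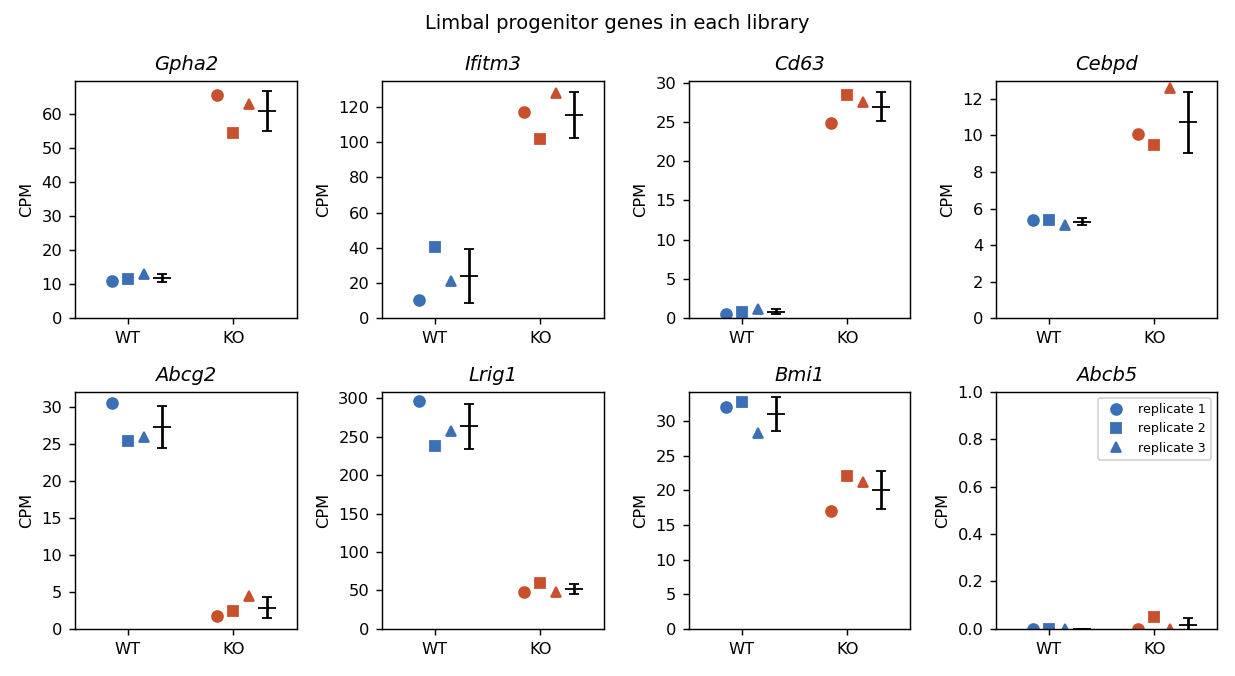
Level of each limbal progenitor gene in CPM (scaled counts, linear axis from 0) in the 3 WT libraries (blue) and 3 KO libraries (red), with the replicate number by symbol and the mean ± SD in black. Gpha2, Ifitm3, Cd63 and Cebpd are higher and Abcg2, Lrig1 and Bmi1 lower in every KO library than in any WT library, while Abcb5 has 1 count in a single KO library.

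The genes of the outer limbus were examined first. Gpha2 (gene 170458, GRCm38 chromosome 19, positions 6226401 to 6227768, plus strand) encodes an alpha subunit of a glycoprotein hormone. The WT libraries held 236, 248 and 275 counts and the KO libraries 1296, 1083 and 1265. The libraries of each group lay close together and far from those of the other group. Its level went from 11.8 ± 1.13 CPM (WT) to 61.0 ± 5.93 CPM (KO, n = 3), which was 5.17-fold higher, with a log2 fold change of 2.37 ± 0.119 (SE) at an adjusted p = 1.98e-06 in edgeR. With a correction for gene length the log2 fold change was 1.46 (adjusted p = 3.08e-05, edgeR), and Gpha2 is a short gene with an effective length of 563 bases beside a median of 2852 for the genes tested. The last 4 bases of the gene overlap Ppp2r5b on the opposite strand, which moved the other way, with a log2 fold change of -1.56 (adjusted p = 6.35e-06, edgeR).

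Ifitm3 (gene 66141, chromosome 7, positions 141009590 to 141010744, minus strand) encodes an interferon-induced membrane protein that blocks the entry of viruses. The WT libraries held 226, 869 and 452 counts, against 2305, 2034 and 2577 for KO. The KO libraries were alike, whereas the WT libraries were spread, with replicate 2 above the others. The mean was 24.1 ± 15.2 CPM (WT) and 116 ± 13.2 CPM (KO, n = 3), a log2 fold change of 2.27 ± 0.401 (SE) at an adjusted p = 0.00135 in edgeR. Without WT replicate 2 the log2 fold change was 2.87, and with the length correction it was 1.43 (adjusted p = 0.0112, edgeR). Ifitm3 thus missed the threshold of the study in the main fit, by its adjusted p. It passed in several alternatives, among them DESeq2 (log2 fold change 2.28, adjusted p = 5.25e-05) and the fit without WT replicate 2 (adjusted p = 1.17e-04, edgeR). Its estimated counts were not whole numbers, so some of its reads also matched other loci.

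Cd63 (gene 12512, chromosome 10, positions 128908919 to 128912822, plus strand) encodes a tetraspanin of late endosomes and exosomes. Counts were 11, 17 and 24 for WT, against 491, 567 and 554 for KO. The WT counts were few, and the KO libraries lay close together. The level rose from 0.810 ± 0.317 CPM to 27.0 ± 1.87 CPM (n = 3), a 33.3-fold difference and the largest among the 7 tested genes, with a log2 fold change of 5.05 ± 0.224 (SE) at an adjusted p = 1.24e-06 in edgeR. A log2 fold change at least this high was rare, since 97.2% of the genes tested had a lower value. With the length correction it was 4.44, and on log2(FPKM + 1), where the added constant is as large as the WT level, it was 3.99.

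Cebpd (gene 12609, chromosome 16, positions 15887286 to 15897838, plus strand) encodes a C/EBP transcription factor that holds limbal cells out of the cell cycle. Counts were 117, 116 and 108 for WT, against 199, 189 and 254 for KO. The WT libraries were almost level and every KO library was above them. The mean rose from 5.29 ± 0.171 CPM to 10.7 ± 1.69 CPM (n = 3), with a log2 fold change of 1.02 ± 0.153 (SE) at an adjusted p = 5.52e-04 in edgeR. Its counts were not whole numbers, and 8615 bases of its span overlap Spidr, which GENCODE M21 places on the opposite strand. Spidr also rose, with a log2 fold change of 0.71 ± 0.187 (SE) at an adjusted p = 0.00996 in edgeR. How far reads were shared between these genes was not tested. The fold change of Cebpd was close to the 2-fold limit of the study, and on the log2 scale it was 0.92 with total counts only, 0.94 with the length correction, 0.88 on log2(FPKM + 0.1), 0.70 on log2(FPKM + 1) and 0.89 without KO replicate 3, all below that limit. Without any other single library its adjusted p was 0.00112 to 0.00275 (edgeR), above the 0.001 of the study.

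The dye-efflux pumps were taken next. Abcg2 (gene 26357, chromosome 6, positions 58584491 to 58694861, plus strand) encodes the transporter by which side-population cells expel Hoechst dye. The WT libraries held 669, 547 and 548 counts, against 35, 48 and 89 for KO. All KO libraries were low, with a spread among them that was wide for their level. The mean fell from 27.3 ± 2.87 CPM to 2.87 ± 1.39 CPM (n = 3), which left 10.5%. In edgeR this gave -3.25 ± 0.281 (log2 fold change ± SE, adjusted p = 3.01e-05), and only 0.8% of the genes tested had a lower value. On log2(FPKM + 1) it was -2.65, and without KO replicate 3 it was -3.71.

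Abcb5 (gene 77706, chromosome 12, positions 118867486 to 118966547, minus strand) encodes a second pump, which marks limbal stem cells in human and mouse. It had 0 counts in the 3 WT libraries and 0, 1 and 0 in the KO libraries. At this depth 3 counts correspond to 0.137 to 0.152 CPM, so Abcb5 mRNA was not detectable in either genotype and was not tested. This limit covers counting error only, because copies made by PCR were not told apart.

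A regulator of growth factor receptors and a chromatin regulator made up the rest. Lrig1 (gene 16206, chromosome 6, positions 94604529 to 94700253, minus strand) encodes a transmembrane protein that promotes the degradation of EGF receptors and marks quiescent epidermal stem cells. Counts were 6452, 5116 and 5428 for WT, against 944, 1195 and 959 for KO. No KO library came near the WT range. The mean fell from 264 ± 29.3 CPM to 51.9 ± 7.01 CPM (n = 3), a 5.08-fold difference with a log2 fold change of -2.35 ± 0.132 (SE) at an adjusted p = 3.14e-06 in edgeR. The end of the gene overlaps 144 bases of Slc25a26 on the opposite strand, a gene of much lower level at 2.12 ± 0.312 CPM in WT. The microRNA gene Mir7041 lies within Lrig1 on the same strand. The estimated counts of Lrig1 were not whole numbers, and how far its reads were shared with other loci was not tested.

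Bmi1 (gene 12151, chromosome 2, positions 18677018 to 18686629, plus strand) encodes a subunit of Polycomb repressive complex PRC1 that sustains self-renewal in several tissues. The WT libraries held 699, 706 and 598 counts, against 336, 441 and 425 for KO. Every KO library was below every WT library. The mean went from 31.1 ± 2.41 CPM to 20.1 ± 2.72 CPM (n = 3), so that 64.7% was left, with a log2 fold change of -0.63 ± 0.127 (SE) at an adjusted p = 0.00273 in edgeR. This was the smallest change among the 7 genes.

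**Figure D2:**
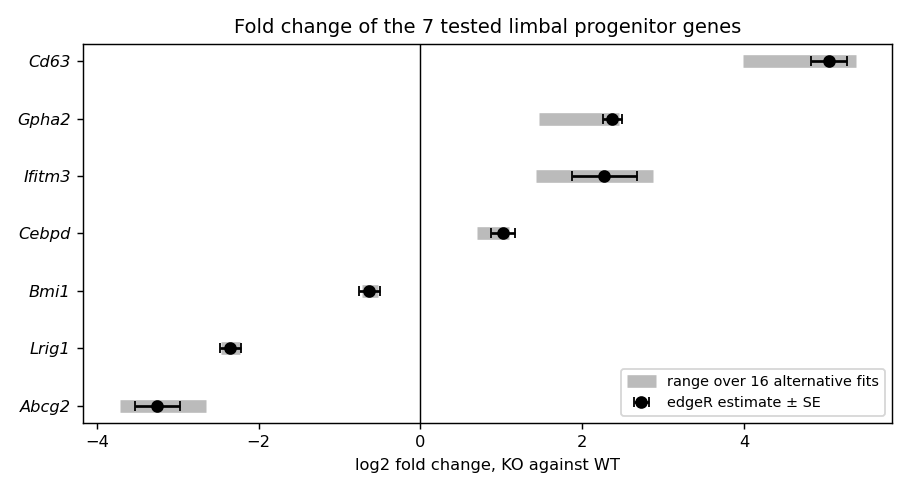
The log2 fold change of KO against WT for the 7 tested limbal progenitor genes, as the edgeR estimate ± SE (black), with the range over 16 alternative fits (grey). No grey bar reaches 0, and the bars are longest for Cd63, Ifitm3 and Gpha2, which extend to lower values, and for Abcg2.

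Each of the 7 genes kept its direction and an adjusted p under 0.05 in all 16 alternative fits. The largest adjusted p in any of them was 0.0125, for Bmi1 without WT replicate 1 (edgeR).

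To place the genes relative to each other, their levels were compared per gene length as FPKM. In WT the order was Lrig1 (59.6 ± 7.31 FPKM), Ifitm3 (39.8 ± 25.2), Gpha2 (21.7 ± 1.63), Abcg2 (12.9 ± 1.58), Bmi1 (9.08 ± 0.743), Cebpd (2.42 ± 0.123) and Cd63 (0.943 ± 0.350, all mean ± SD, n = 3). Neighbours in this order were separate in every library except for Ifitm3, whose WT range of 17.5 to 67.2 FPKM overlapped those of Lrig1 and Gpha2. In KO, Ifitm3 (179 ± 18.1 FPKM) and Gpha2 (105 ± 8.21) stood first, followed by Cd63 (29.5 ± 2.55), Lrig1 (11.1 ± 1.71), Bmi1 (5.51 ± 0.987), Cebpd (4.57 ± 0.689) and Abcg2 (1.26 ± 0.613, mean ± SD, n = 3). The KO ranges of Bmi1 and Cebpd overlapped. The genes thus changed places. Gpha2 stood above 75.9% of the genes tested in WT and above 95.2% in KO, whereas Abcg2 went from above 62.9% to above 18.5%. Within single libraries, the ratio of Gpha2 to Abcg2 in FPKM was 1.38, 1.77 and 1.96 in WT and 144, 89.2 and 55.2 in KO.

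**Figure D3:**
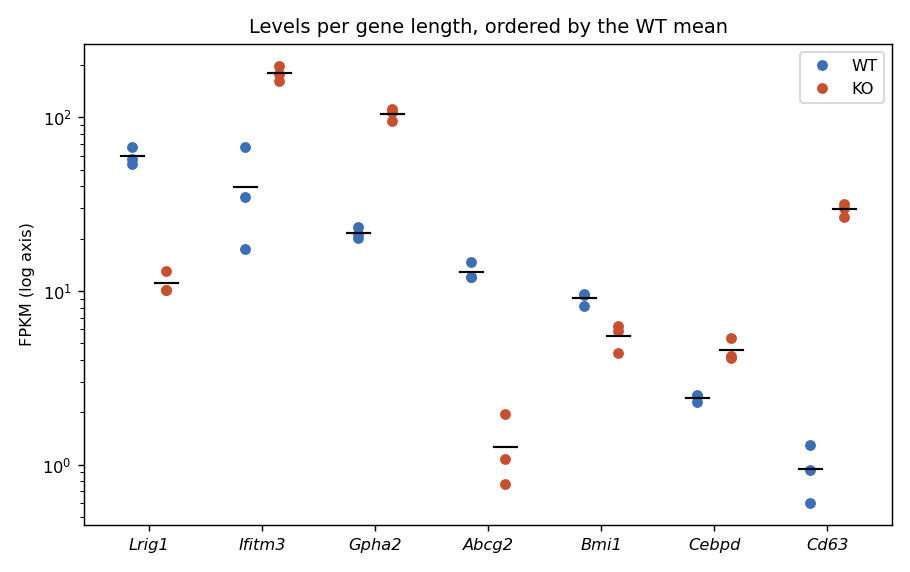
FPKM (level per gene length, log axis) of the 7 detected limbal progenitor genes in 3 WT (blue) and 3 KO (red) libraries, with black bars at the group means and genes ordered by the WT mean. Lrig1 is the highest gene in WT and the fourth in KO, whereas Cd63 is the lowest in WT and the third in KO.

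Promoter sequences were read for the members with the largest changes, to show what lies upstream of genes that moved in opposite directions. The sequences are the 250 bases before a transcription start in RefSeq (build GRCm38.p6), printed 5′ to 3′ on the strand of the gene, and capitals mark motif matches. RefSeq gave 9 starts for 7 of the 8 genes (3 for Abcg2, of which the second is shown), and Cebpd had no entry. The second start of Abcg2 is the one with the κB match given below, and neither other start of Abcg2 has one. The sequence just after the start of Gpha2 was not found near the beginning of a GENCODE M21 transcript, unlike those of the other starts shown. The starts shown for Cd63, Abcg2 and Lrig1 lie inside the gene spans given above. Which start was used in these cells was not analysed here.
Gpha2, chr19:6226151-6226400, plus strand: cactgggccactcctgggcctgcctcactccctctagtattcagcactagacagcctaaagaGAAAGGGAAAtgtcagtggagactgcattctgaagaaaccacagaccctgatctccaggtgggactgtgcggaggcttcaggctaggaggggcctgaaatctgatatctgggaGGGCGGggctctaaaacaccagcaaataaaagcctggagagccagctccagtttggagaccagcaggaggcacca
Ifitm3, chr7:141010745-141010994, minus strand: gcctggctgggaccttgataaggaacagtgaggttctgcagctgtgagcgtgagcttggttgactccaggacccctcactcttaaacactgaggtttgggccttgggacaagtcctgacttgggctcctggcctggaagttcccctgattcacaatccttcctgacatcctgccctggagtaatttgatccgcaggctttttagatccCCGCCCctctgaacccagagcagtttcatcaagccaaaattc
Cd63, chr10:128909095-128909344, plus strand: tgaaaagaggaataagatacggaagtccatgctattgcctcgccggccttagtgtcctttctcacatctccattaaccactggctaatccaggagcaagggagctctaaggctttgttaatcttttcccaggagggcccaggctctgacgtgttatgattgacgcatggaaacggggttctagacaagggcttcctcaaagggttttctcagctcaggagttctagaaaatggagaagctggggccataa
Abcg2, chr6:58596422-58596671, plus strand: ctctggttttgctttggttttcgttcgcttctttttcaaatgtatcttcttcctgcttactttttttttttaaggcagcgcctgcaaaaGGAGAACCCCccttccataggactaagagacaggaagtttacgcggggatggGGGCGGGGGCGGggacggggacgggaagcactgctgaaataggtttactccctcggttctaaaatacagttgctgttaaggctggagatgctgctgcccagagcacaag
Lrig1, chr6:94700146-94700395, minus strand: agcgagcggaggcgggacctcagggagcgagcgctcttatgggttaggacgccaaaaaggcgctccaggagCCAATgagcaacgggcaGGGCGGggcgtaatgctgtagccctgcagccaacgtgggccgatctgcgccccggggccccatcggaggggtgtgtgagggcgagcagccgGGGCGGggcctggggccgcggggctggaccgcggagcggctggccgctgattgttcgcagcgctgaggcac
Of 6 motifs searched on both strands, the GC box (GGGCGG) matched in 6 of the 9 windows of the members and in 32.7% of 32851 RefSeq windows of the same length. The κB motif, the site type bound by NF-κB, matched in 1 of the 9, at Abcg2 (GGAGAACCCC as printed, a match on the opposite strand), and in 3.90% of all windows. The interferon response type motif (GAAA followed by any 2 bases and GAAA) matched only at Gpha2 among the members (GAAAGGGAAA, starting 188 bases before the RefSeq start) and in 2.98% of all windows. The CCAAT box (CCAAT) matched at Lrig1 alone among the members and in 33.8% of all windows. The TATA box (TATAAA, 12.4% of all windows) and the C/EBP motif (TTGCNNAA, 9.56%) matched in 0 of the 9. In the sequences shown, no match overlapped a match to another motif, and the GC boxes of Abcg2 lie side by side. A match shows only that the letters are present.

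The relatives and partners of each member were then counted from lists of related genes, to be read against the 31.8% higher and 30.2% lower among all genes tested. For Gpha2, its partner in the hormone thyrostimulin, Gphb5, was counted 0, 0 and 2 times for WT and 5, 15 and 2 times for KO and was too low to be tested. Their receptor gene Tshr never exceeded 3 counts in a library, as was Cga, the alpha subunit of the pituitary hormones.

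The Ifitm family was compared with genes that interferon induces. Besides Ifitm3, 3 family members were tested and 2 rose, Ifitm1 (log2 fold change 0.68, adjusted p = 0.00974, edgeR) and Ifitm2 (0.60, adjusted p = 0.0103). With the length correction neither was called and both values were below 0, at -0.15 and -0.27. The estimated counts of Ifitm1 and Ifitm2 were not whole numbers. In the deposited coordinates the span of Ifitm2 lies inside that of Ifitm1 on the same strand. How far reads were shared between them was not tested. Of the 11 other interferon-stimulated genes, 9 fell and 0 rose in edgeR, with a median log2 fold change of -1.05 beside 0.01 for all genes tested. All 11 values were below 0, so 0 rose at an unadjusted p under 0.05 too, and DESeq2 called 0 as higher. Examples were Rsad2 (-2.87, adjusted p = 0.00214), Stat2 (-1.53, adjusted p = 1.15e-04), Irf7 (-1.40, adjusted p = 1.19e-04) and Usp18 (-1.37, adjusted p = 0.00182). Rsad2 encodes the antiviral protein viperin, Stat2 and Irf7 encode transcription factors of the interferon response, and Usp18 encodes a feedback inhibitor of the receptor. Oas1a and Bst2 did not pass. Without WT replicate 2 the count was again 9 lower and 0 higher. Rsad2 rested on 36, 85 and 39 counts for WT and 2, 11 and 7 for KO. Over the alternative fits its log2 fold change lay between -3.43 and -0.60. Ifitm3 therefore moved in the opposite direction to 9 of these 11 genes.

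**Figure D4:**
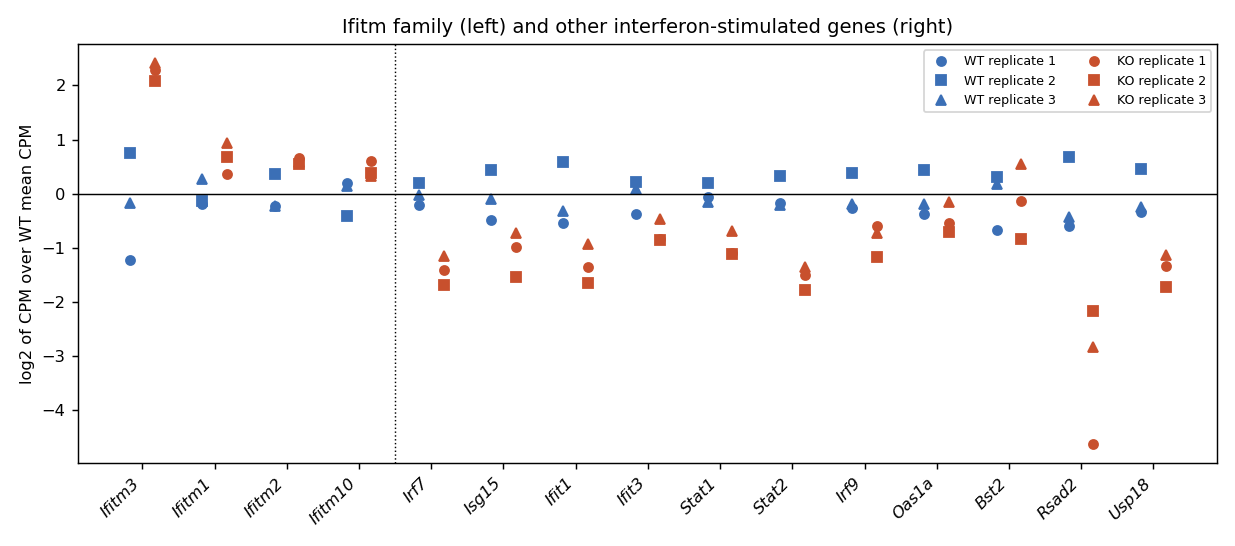
Level of Ifitm3 and its relatives (left of the dotted line) and of 11 other interferon-stimulated genes (right) in each library, as log2 of CPM over the WT mean CPM, with WT in blue, KO in red and the replicate number by symbol. The 3 KO libraries lie above the WT libraries for Ifitm3 and below them for 9 of the 11 genes on the right, and WT replicate 2 (blue square) is the highest WT library for each of the 11.

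Around Cd63, 16 tetraspanins and endosomal partners were tested, and 10 rose and 3 fell, with a median log2 fold change of 0.47. Timp1, a secreted inhibitor of metalloproteinases that binds CD63, had a log2 fold change of 3.73 (adjusted p = 0.00153, edgeR) on 5, 13 and 2 WT counts against 31, 132 and 87 KO counts. The tetraspanins Tspan8 (adjusted p = 0.0032) and Tspan3 (log2 fold change 2.05, adjusted p = 7.64e-06) rose. Some of the rises rested on few counts. Cd37 had 1, 2 and 5 counts for WT and 11, 14 and 23 for KO, and Cd53 had 21, 16 and 26 against 33, 84 and 46. The falls were in Cd82 (-2.09, adjusted p = 2.07e-06), Pdcd6ip (-0.87), which encodes the ESCRT adaptor ALIX, and Cd151 (-0.31), a partner of laminin-binding integrins. Cd82 fell from 340 to 79.5 CPM. The Timp1 value was 4.64 without WT replicate 2, that of Tspan8 was 1.57 without KO replicate 3, and the call of Cd151 was lost without WT replicate 1 (adjusted p = 0.069, edgeR) or WT replicate 3 (adjusted p = 0.056). The rise of Cd9 (0.48) was not called with the length correction.

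Among 10 tested ABC transporters of the same subfamilies as the pumps, 4 rose and 5 fell. Abcb1b, which encodes a P-glycoprotein multidrug pump, was counted 1, 7 and 3 times for WT and 135, 171 and 122 times for KO, a log2 fold change of 5.34 ± 0.417 (SE) at an adjusted p = 1.73e-05 in edgeR. It thus rose where Abcg2 fell. Abcg4 (2.70), Abcb6 (0.88) and Abcb10 (0.83) were also higher. Lower were the cholesterol exporter gene Abcg1 (-0.93), the peptide transporter genes Tap2 (-0.74) and Tap1 (-0.45), Abcb9 (-0.49) and Abcb8 (-0.41). Abcb1b was at 6.18 without WT replicate 2. Abcb9 and Tap1 each lost the call in 4 of the 6 fits that left out a library, with values of -0.43 and -0.31 without WT replicate 2. The count of lower genes was 3 without WT replicate 2 and 3 without KO replicate 1.

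For Lrig1, its family members and the receptor tyrosine kinases it can restrain gave 7 tested genes, of which 4 fell and 0 rose in edgeR, also at an unadjusted p under 0.05 and in DESeq2. The falls were in the receptor genes Met (log2 fold change -1.58, adjusted p = 5.56e-05, edgeR), Ret (-1.35), Egfr (-0.97) and Erbb3 (-0.49). Lrig2 and Lrig3 did not pass (log2 fold changes -0.01, SE 0.139, and -0.10, SE 0.121), in contrast to the value of Lrig1, although the difference between the paralogs was not tested.

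Of 21 genes tested around Bmi1, which were Polycomb genes and their target Cdkn2a, 11 fell and 2 rose, with a median log2 fold change of -0.36. The share called in either direction was close to the 62.0% of all genes tested. The largest falls were in the PRC1 genes Cbx7 (-1.61, adjusted p = 4.69e-04, edgeR), Phc1 (-1.26) and Scmh1 (-0.98). The core PRC2 genes Ezh2, Eed and Suz12 did not pass in the main fit, although Ezh2 was called lower in 4 of 16 alternatives. The PRC2 gene Ezh1 fell, and it was called in all 16 alternatives, at log2 fold changes of -0.97 to -0.78. Cdkn2a, a gene that Bmi1 represses in other tissues, was counted 26, 41 and 32 times for WT and 77, 54 and 46 times for KO (log2 fold change 0.95, SE 0.291, adjusted p = 0.0205, edgeR). It lost this call in 4 of 15 alternative fits, among them the length correction and the fits without WT replicate 1, WT replicate 3 or KO replicate 1. The other rise was in the PRC1 gene Pcgf6 (0.51).

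Of 8 tested genes in the list of C/EBP genes and cell cycle inhibitors, 4 rose and 1 fell, a share close to the 62.0% called among all genes tested. Cebpb (1.56, adjusted p = 1.61e-04, edgeR) and Cebpa (1.23), which encode regulators of keratinocyte differentiation, rose. Cebpz (0.67), which was listed for its symbol, and Cebpg (0.34) were also higher. Cebpg lost its call without WT replicate 1 (adjusted p = 0.0508, edgeR) or WT replicate 3 (adjusted p = 0.0517). Cdkn1b, which encodes the inhibitor p27, fell from 127 to 68.3 CPM (log2 fold change -0.90, adjusted p = 0.00133, edgeR), whereas Cdkn1a and Cdkn1c did not pass.

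Finally, 19 other genes reported in limbal or corneal progenitors were counted, of which 18 were tested, 7 rose and 5 fell, near the 62.0% called among all genes tested. Socs3, a feedback inhibitor of cytokine signalling found in the inner limbus, was counted 10, 28 and 10 times for WT and 548, 395 and 514 times for KO (log2 fold change 5.02, SE 0.330, adjusted p = 7.11e-06, edgeR). The stress factor gene Atf3 had a log2 fold change of 3.28 (adjusted p = 0.00622), with 363 counts in KO replicate 3 beside 75 and 71, and was at 2.07 without that library. Without WT replicate 2 the log2 fold change was 4.10 for Atf3, 5.70 for Socs3 and 5.21 for Krt14. Krt14 (4.15), Tcf4 (1.14), Krt19, Mt1 and Mt2 were also higher, although Mt1 and Mt2 were not called with the length correction. The falls were in Ngfr (-2.12, adjusted p = 5.42e-05), which encodes the neurotrophin receptor p75, Hes1 (-0.89), Sox9 (-0.79), Fzd7 (-0.57) and Itga6 (-0.47), the last of which was not called with the length correction. Krt15, Trp63, Itgb1, Notch1, Itga9 and Cdh2 did not pass, and Wnt7a was at or under 3 counts everywhere. For Krt15 the groups overlapped, at 2190 CPM in WT and 2432 CPM in KO on average.

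**Figure D5:**
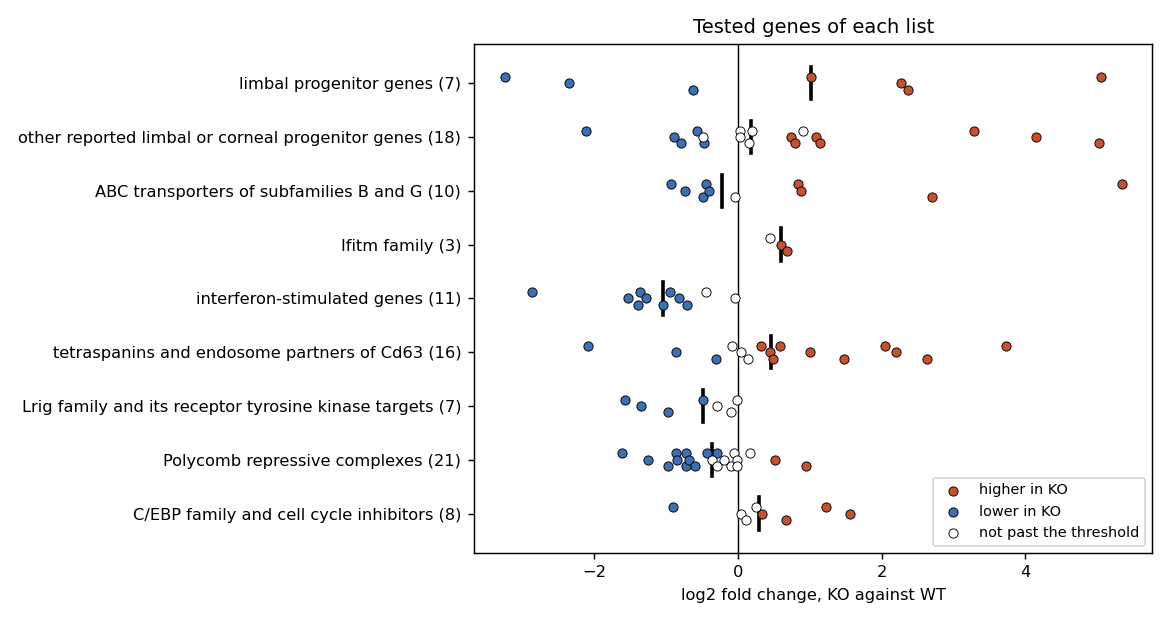
Log2 fold change of KO against WT for each tested gene of 9 lists (number of tested genes in parentheses), red where higher, blue where lower and white where the adjusted p was 0.05 or more, with black bars at the medians. The limbal progenitor genes spread from -3.25 to 5.05 on both sides of 0, whereas the interferon-stimulated genes and the Lrig list lie below 0.

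Markers of other cell types moved in the same libraries and are given beside these results. Among all genes tested, 31.8% were called higher and 30.2% lower in edgeR, and the short marker lists are descriptions beside these shares. Of 5 tested epidermal markers 4 rose and Ivl fell (log2 fold change -0.60), and their summed level was 28.5 to 39.5 CPM in WT and 10153 to 22720 CPM in KO. All 4 tested markers of conjunctiva and mucosa rose, from 1873 to 2900 CPM in WT to 52199 to 66916 CPM in KO. One of these markers, Krt19, was also counted among the other progenitor genes above. Of the macrophage and dendritic list 5 of 7 rose and Itgam fell (log2 fold change -0.60), although the sums overlapped (271 to 347 CPM in WT and 268 to 340 CPM in KO) because Itgam and Cd68 were high in WT too. Its Ptprc reached 5.27 CPM and Lyz2 9.39 CPM in KO. All 3 tested T lymphocyte markers rose, to sums of 3.28 to 7.17 CPM from 0.702 to 0.779 CPM. Keratocyte and fibroblast markers rose in 4 of 5 tested, to 22.8 to 32.9 CPM from 7.23 to 12.2 CPM, with Lum at no more than 4 counts in any library. The 1 tested endothelial marker, Pecam1, rose, with sums of 0.810 to 0.897 CPM in KO, while Kdr and Tek were at or under 3 counts. Of 4 tested melanocyte markers 2 fell, and Tyrp1 and Mlana were at or under 3 counts, and of 2 tested nerve markers 1 rose and 1 fell. The part of these cell types in the changes of the limbal progenitor genes was not tested.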

How the data were processed

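The data were 6 RNA-seq libraries, 3 per genotype, of total RNA from separated corneal epithelium. The study's methods describe depletion of ribosomal RNA and single-end reads from a BGI sequencer, while the labels name an Illumina kit. The authors aligned reads with Bowtie2 2.2.5 and estimated gene levels with RSEM 1.2.12. The deposited estimated counts are not normalized, and 30.4% to 32.3% of the values per library are not whole. The authors also deposited FPKM, which scales by transcript length and depth, and TPM, which was not used for any result. The processing notes name mm9, but the deposited coordinates are those of GRCm38. Columns of the authors' own DESeq2 comparison (fold changes and p-values) and of group means were not used. Each of the 18 library columns could be assigned to a sample by its name.

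Rounded counts of 13305 genes that passed filterByExpr went into the quasi-likelihood test of edgeR 4.0.16 (R 4.3.3), with TMM factors, a genotype term alone and Benjamini-Hochberg adjustment. Each SE was derived as |log2 fold change| over √F. CPM values are the unrounded counts scaled by TMM factors of 0.952 to 1.05, and printed counts are rounded. The gene lists and the 8 genes were chosen with earlier results of these data known. Named were the 8 genes, up to 4 called genes per list with the largest change (group mean of 20 counts or more where higher), and members behind counts of 5 or fewer. Others named in a list were chosen after their values were seen. They were Cd9, Cd37, Cd53, Ezh1, the genes that did not pass, and further calls of the progenitor and C/EBP lists. The samples are separate biological samples according to the study.

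The 16 alternatives were DESeq2 1.42.0, RLE size factors, library totals alone, TMM after removal of the 20 most abundant genes, no filter, a mean count of at least 50, a replicate block, limma 3.58.1 on log2(FPKM + 1) and log2(FPKM + 0.1), a loess offset for gene length, and leaving out each library in turn. The test was checked on simulated data in which 200 of 13305 genes changed. It recovered 97% of 4-fold and 80% of 2-fold changes and called 9 unchanged genes. Far more genes were called in the real data, and no simulated library stood apart, so the check does not cover these conditions. Whether counting used strand is not given in the sources used here. Abcg5, Fshb, Fshr, Lhcgr, Trac, Cdh5 and Emcn of the lists were not analysed here. Tables and plots were made with Python 3.11.15, pandas 2.3.3, numpy 2.4.6 and matplotlib 3.10.9.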

Additional observations from a re-analysis of the deposited data

How the results depend on the processing

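The 7 tested limbal progenitor genes kept their direction and their side of the adjusted p of 0.05 in all 16 alternatives, as did the counts of 4 higher and 3 lower. The total of higher genes lay between 3593 and 4615 and that of lower genes between 3412 and 4642. The replicate numbers occur in both genotypes, but same-numbered libraries did not deviate together (r of 0.03, -0.01 and 0.06 over genes), and of the WT libraries replicate 3 alone correlated best with its own number. With the replicate block, the 7 genes kept their calls, Abcg2 had a log2 fold change of -3.29 and Ifitm3 2.44, and 4149 genes were higher and 3934 lower in all.

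Of the counts for the other lists, 10 moved by more than 1.5 times under an alternative and 278 did not. The Ifitm family had 0 higher genes in place of 2 with the length offset, the tetraspanin list 6 in place of 10 at a mean count of at least 50, the ABC transporter list 3 lower genes in place of 5 without WT replicate 2 or KO replicate 1, and the Polycomb list 1 higher gene in place of 2 in 5 alternatives. Of the hormone list 1 gene was called higher without the filter, and the cause of these moves was not tested beyond the loss of low genes under the stricter filter. At the threshold of the study, Cebpd was not called in several alternatives, among them each fit that left out a library. Ifitm3 was not called at it in the main fit but was called in several alternatives, among them DESeq2. At this depth Abcb5 was not detectable, and the WT level of Cd63 rested on 11 to 24 counts.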

Other observations

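Likeness to other genes was measured as the Pearson correlation of log2 CPM over the 6 libraries, among genes with a mean count of at least 100. Because all 6 libraries share the split by genotype, such values are high for many genes and are given as a description. For Gpha2 the closest were Btg1, Tuba4a and Klk7 (r of 0.9993, 0.9992 and 0.9991), and 1520 of 10456 genes had r of at least 0.95. For Cd63 they were Gdpd3, Rpl32 and Krt4, with 1668 genes at or above that value. Abcg2 was followed most closely by Vgll3, Akr1c13 and Oat, Lrig1 by Fermt1, Lamb1 and Jak1, Bmi1 by Ttbk2, Mbnl3 and Nanp, and Cebpd by Nedd9, Smg8 and Tent2. Ifitm3, with its wide WT spread, was closest to Amigo1, Tacc3 and Arl4d, and 423 genes reached 0.95.

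In WT replicate 2, the library with the most Ifitm3, each of the 11 other interferon-stimulated genes was also at its highest WT level, as was Ifitm2 but not Ifitm1. Of all genes tested, 33.2% were highest in this library. In KO the direction parted, since Ifitm3 rose while 9 of the 11 fell.

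The 3 genes with the largest rises were also short, with effective lengths of 624 bases for Ifitm3, 563 for Gpha2 and 884 for Cd63. The genes that fell were longer than these, at 2190 bases for Abcg2, 3536 for Bmi1 and 4569 for Lrig1. Cebpd, which also rose, had 2266 bases, close to the 2190 of Abcg2. How far gene length contributed to these changes was not tested. With the length offset each of the 7 tested genes stayed called in edgeR in the same direction.

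Tshb, the beta subunit of pituitary thyrotropin, was counted 166, 165 and 190 times for WT and 185, 183 and 162 times for KO, although Cga, the alpha subunit it pairs with, was at or under 3 counts. The counts of Tshb were not whole numbers, so some of its reads also matched other genes.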
